A study of Mus musculus with 10 samples.

Results

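The core circadian clock loop was followed in 10 mouse livers through its 10 genes: the activators Arntl (also called Bmal1), Clock and Npas2, the period genes Per1, Per2 and Per3, the cryptochromes Cry1 and Cry2, and the nuclear receptors Nr1d1 and Nr1d2 (REV-ERB alpha and beta). They were taken by symbol from a table of 24537 gene symbols, and all 10 were among the 13909 genes with enough counts to be tested. RNA of whole livers of male mice was sequenced. Hepatocytes had been edited in the animal by AAV8, an adeno-associated virus with Staphylococcus aureus Cas9 under the TBG promoter, which is active in hepatocytes, so that other liver cells are not its target. The young control group held 3 livers of mice aged 9 months that had received a Rosa26 guide at 7 months, and the old control group held 3 livers of mice aged 25 months that had received it at 23 months. The old knockout group held 4 livers of mice aged 25 months that had received a Cd44 guide at 23 months, guide 4 in replicates 1 and 2 and guide 2 in replicates 3 and 4. All groups thus carry the virus and the nuclease, and none is untreated. The labels do not give the hour at which any liver was taken, so clock genes can be compared between these livers only as single readings, and the part of the hour in the results below was not tested.

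In the mammalian clock, ARNTL pairs with CLOCK or its relative NPAS2 and drives genes through E-box sequences, among them the Per, Cry and Nr1d genes. PER and CRY proteins then hold back that pair, while NR1D1 and NR1D2 repress Arntl through ROR elements. In liver the loop runs with a daily period, is set by feeding, glucocorticoids and body temperature, and drives output factors such as DBP, which acts through D-box sequences.

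Library totals ranged from 15821198 to 21710228 counts, and a floor of 3 counts amounts to between 0.138 and 0.19 CPM, depending on the library. CPM are counts scaled to library size, here corrected with TMM factors, which estimate composition differences between libraries. Those factors were lower in the young livers (0.824 to 0.897) than in the old ones (0.966 to 1.12). The labels number the livers but do not state separate litters, cages or days, so p-values measure the spread between these samples only. Young replicate 2 and old control replicate 3 stand apart from the rest of their groups in clock genes, and the name of the latter library lies outside the run of the other names. Results that rest on either are given with and without it. Cd44, the targeted gene, had 16.6, 11.1 and 10.1 CPM in the young livers, 14.2, 29.98 and 25.9 CPM in the old control livers, and 18.9, 28.998, 17.6 and 13.1 CPM in the livers labelled as knockout. These whole-liver levels of Cd44 overlapped between old control and knockout livers, with a log2 fold change of -0.25 (SE 0.30, adjusted p = 0.896 in edgeR's quasi-likelihood test), so the label of knockout was not checked by its own transcript.

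Per kilobase of exon, Nr1d1 was the most abundant of the 10 in every group, at 39.9 ± 7.26 CPM per kb (SD, n = 3) in young control, 56.5 ± 8.15 (SD, n = 3) in old control and 42.2 ± 5.47 (SD, n = 4) in old knockout livers. Nr1d2 came next in each group. Npas2 stood last in both old groups, at 0.386 ± 0.154 CPM per kb (SD, n = 3) in control and 0.341 ± 0.107 (SD, n = 4) in knockout livers. In the young livers Per3 was last, at 0.455 ± 0.288 CPM per kb (SD, n = 3), and in both old groups it ranked 6 of 10, at 1.95 ± 0.831 (SD, n = 3) in control and 2.64 ± 0.507 (SD, n = 4) in knockout livers. Between Nr1d2 and Arntl each neighbour in the young order overlapped the next in its range over livers, so that only the steps from Nr1d1 to Nr1d2 and from Arntl to Npas2 separated all livers. In the old control livers the step from Nr1d2 to Cry2 separated them too.

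The plot of the 10 genes by liver shows all values that follow.

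**Figure D1:**
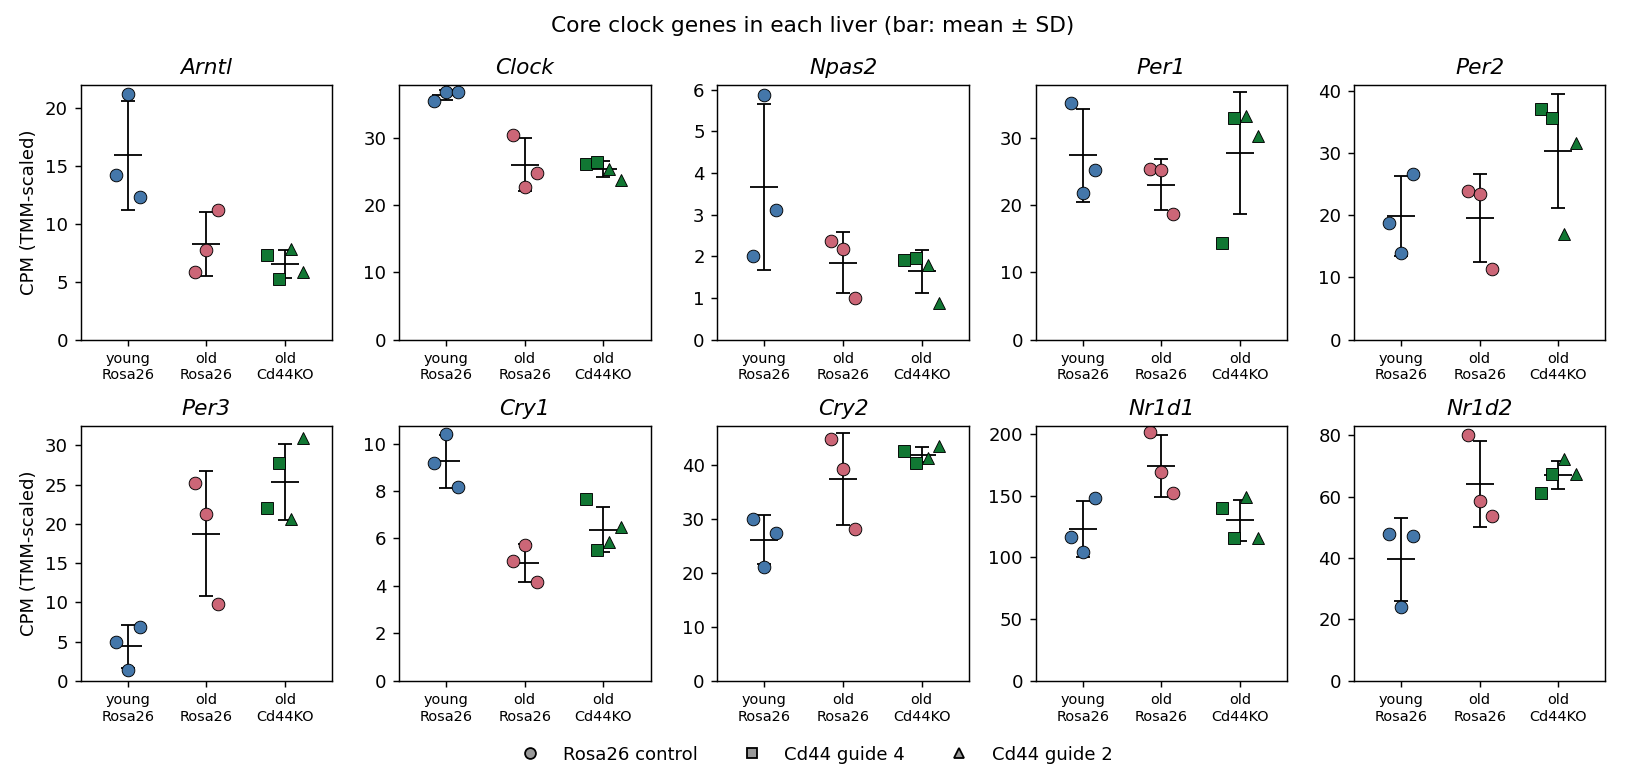
CPM of each core clock gene (vertical axes, from 0) in young control (n = 3), old control (n = 3) and old Cd44 knockout livers (n = 4); each point is a liver and bars give mean ± SD. Per3 lay between 1.38 and 6.84 CPM in young and between 9.82 and 31.0 CPM in old livers, while Arntl lay at or above 12.3 CPM in every young liver and at or below 11.2 CPM in every old one.

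Of the activators, Arntl and Clock fell with age. Arntl (GRCm38, chromosome 7, 113207465 to 113314126, plus strand; protein coding) encodes the subunit whose loss stops the loop, and had 14.2, 21.2 and 12.3 CPM in young replicates 1 to 3. The old control livers had 5.80, 7.70 and 11.2 CPM of Arntl, and the old knockout livers 7.26, 5.23, 7.77 and 5.83 CPM. No old liver reached the lowest young one, and old control replicate 3 came nearest. Arntl was lower in old than in young controls by a log2 fold change of -0.95 (SE 0.27, adjusted p = 0.0318), and lower in old knockout than in young livers by -1.28 (SE 0.25, adjusted p = 0.0185). The call with age was lost when young replicate 1 (adjusted p = 0.0573), young replicate 2 (0.138), old control replicate 1 (0.0741) or old control replicate 2 (0.102) was left out of the edgeR fit. In all, this age call was lost in 6 of 13 alternatives, library totals alone among them. The call of Arntl in old knockout against young livers was lost in 5 of 16 alternatives (adjusted p up to 0.0949).

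Clock (chromosome 5, 76209868 to 76304792, minus strand), the usual partner of ARNTL, had 35.4, 36.8 and 36.7 CPM in the young livers. Its old control values were 30.4, 22.7 and 24.8 CPM and its old knockout values 26.0, 26.4, 25.3 and 23.7 CPM. The young livers differed by only 2.14% in Clock (coefficient of variation), the smallest spread of any member in that group, and lay above all 7 old livers. With age Clock changed by -0.48 (SE 0.12, edgeR adjusted p = 0.0207), and in old knockout against young by -0.52 (SE 0.11, adjusted p = 0.0238). The age call of Clock was lost in 6 of 13 alternatives. Among them were those without young replicate 2 (edgeR adjusted p = 0.0734), young replicate 3 (0.058) or old control replicate 2 (0.0818). It was also lost without both libraries that stand apart (0.0572) and with library totals alone (0.351). The call of Clock in old knockout against young livers was lost in 9 of 16 alternatives (adjusted p up to 0.248). Npas2 (chromosome 1, 39193731 to 39363236, plus strand), which can take the place of CLOCK, was low throughout, with 2.02, 5.87 and 3.10 CPM in young, 2.36, 2.19 and 1.001 CPM in old control and 1.92, 1.96, 1.79 and 0.875 CPM in old knockout livers. Old control livers overlapped young ones in Npas2, and its log2 fold change of -0.98 with age did not pass the test (95% interval -1.97 to 0.01, adjusted p = 0.132). Npas2 was counted by 15 to 89 reads per liver.

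A match to a ROR element, the kind of sequence that NR1D proteins and the activating RORs share, stands just after the second annotated start of Arntl. It is shown because no other member had one. It comes from RefSeq (GRCm38.p6), chr7:113207528-113207557, plus strand, with the match (AAN followed by TAGGTCA) in capitals, its first base at position 28 after the start.
Arntl ROR match: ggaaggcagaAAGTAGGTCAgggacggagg
This element was present in 0.219% of the 32851 promoter windows of the same length in RefSeq, on either strand.

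Among the period genes, whose proteins form the repressive complex with the cryptochromes, Per3 rose and Per1 and Per2 did not pass the test. Per3 (chromosome 4, 151003652 to 151044665, minus strand) had 4.89, 1.38 and 6.84 CPM in young livers. It had 25.2, 21.2 and 9.82 CPM in old control livers and 22.01, 27.8, 20.6 and 31.0 CPM in old knockout livers. Young and old livers did not overlap in Per3, and the nearest values were young replicate 3 and old control replicate 3. The log2 fold change of Per3 was 2.09 (SE 0.46, edgeR adjusted p = 0.0133) with age and 2.53 (SE 0.45, adjusted p = 0.0139) in old knockout against young livers. Without young replicate 2 the age difference of Per3 was 1.67 (adjusted p = 0.0486) and without old control replicate 3 it was 2.40 (adjusted p = 0.00323). Per3 was the one member whose age call stood in all 13 alternatives, with log2 fold changes from 1.67 to 2.56. Its adjusted p over these alternatives reached 0.0499, just under the threshold of 0.05.

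Per1 (chromosome 11, 69095217 to 69109960, plus strand), which responds quickly to glucocorticoids and other cues, had 35.2, 21.8 and 25.2 CPM in young, 25.3, 25.2 and 18.6 CPM in old control and 14.3, 33.0, 33.3 and 30.2 CPM in old knockout livers. All 3 groups overlapped in Per1. Knockout replicate 1, at 14.3 CPM, was the lowest of the 10 livers, while the other 3 knockout livers lay close together. Per2 (chromosome 1, 91415982 to 91459324, minus strand), another repressor of the ARNTL and CLOCK pair, had 18.7, 14.0 and 26.7 CPM in young, 23.8, 23.4 and 11.3 CPM in old control and 37.1, 35.5, 17.0 and 31.6 CPM in old knockout livers. With age the log2 fold change of Per1 was -0.25 (95% interval -0.89 to 0.39) and that of Per2 was -0.02 (95% interval -0.78 to 0.74), and both changed sign when library totals were used without TMM factors. Old knockout livers had a Per2 log2 fold change of 0.61 against young livers (95% interval -0.10 to 1.33, adjusted p = 0.207).

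The upstream sequences of Per3 and Per1 are shown because these relatives differed in their values and differ in the clock elements held there. Both are the 250 bases before an annotated start, from RefSeq (GRCm38.p6), written in the direction of the gene. Capitals mark matches to a D-box (TTANGNAA) or an E-box (CACGTG), and positions count back from the start. Per3 is chr4:151044666-151044915 on the minus strand, outside any annotated exon. Per1 is chr11:69098699-69098948 on the plus strand, before its first RefSeq start, and in GENCODE M21 it lies in an intron of a longer transcript except for 1 base.
Per3 upstream: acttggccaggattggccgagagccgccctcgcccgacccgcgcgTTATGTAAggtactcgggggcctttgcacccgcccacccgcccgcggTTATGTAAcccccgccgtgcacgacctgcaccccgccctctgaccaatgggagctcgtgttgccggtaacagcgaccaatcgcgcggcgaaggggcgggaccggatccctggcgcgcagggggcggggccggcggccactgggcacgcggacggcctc
Per1 upstream: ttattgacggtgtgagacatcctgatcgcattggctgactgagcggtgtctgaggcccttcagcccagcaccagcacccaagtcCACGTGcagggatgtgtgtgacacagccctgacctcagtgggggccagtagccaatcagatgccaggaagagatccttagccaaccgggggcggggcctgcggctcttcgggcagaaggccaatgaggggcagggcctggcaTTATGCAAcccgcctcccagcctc
Per3 held the same D-box, TTATGTAA, at positions -205 and -158. That exact sequence was found in 0.938% of the 32851 windows of 300 bases, and a window with 2 or more of them in 0.0213%. Per1 held an E-box at -166 and a D-box of other letters, TTATGCAA, at -24. The broader D-box TTANGNAA, which takes in TTATGTAA, stood in 11.5% of windows and the E-box in 7.15%. These matches are descriptions of letters, and binding was not measured.

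Of the cryptochromes, Cry1 was lower in old than in young controls, and Cry2 was higher in old knockout than in young livers. Cry1 (chromosome 10, 85131700 to 85185064, minus strand), a strong repressor in the loop, had 9.17, 10.4 and 8.17 CPM in young livers. It had 5.06, 5.74 and 4.15 CPM in old control livers, all below the young ones, and 7.67, 5.49, 5.84 and 6.47 CPM in old knockout livers. Cry1 fell with age by 0.89 on the log2 scale (SE 0.19; adjusted p = 0.0129, edgeR), a call lost without young replicate 2 (adjusted p = 0.0609) and with library totals alone (0.058). In old knockout against young livers the log2 fold change of Cry1 was -0.54 (95% interval -0.93 to -0.15, adjusted p = 0.0681), although those groups did not overlap.

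Cry2 (chromosome 2, 92403646 to 92434043, minus strand) had 29.9, 21.0 and 27.4 CPM in young, 44.8, 39.2 and 28.1 CPM in old control and 42.5, 40.2, 41.2 and 43.5 CPM in old knockout livers. Old control replicate 3 was the one old liver within the young range of Cry2. The 4 knockout livers differed by 3.4% (coefficient of variation), the least of any member in that group. Cry2 was higher in old knockout than in young livers by 0.68 (SE 0.17, edgeR adjusted p = 0.031), a call lost in 8 of 16 alternatives, among them those without any of young replicates 1 to 3 and knockout replicates 2 to 4 (adjusted p up to 0.134). The log2 fold change with age in controls was 0.52 (95% interval 0.13 to 0.90, adjusted p = 0.0538). That age difference passed the test when old control replicate 3 was left out. As a ratio of CPM within each library, which does not depend on the scaling between libraries, Cry2 to Cry1 was 3.26, 2.02 and 3.35 in young livers, 8.85, 6.83 and 6.78 in old control livers and 5.54, 7.33, 7.07 and 6.72 in old knockout livers. Every old liver, control replicate 3 included, lay above every young one in this ratio. It is not corrected for gene length and compares livers, not the 2 genes.

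The sequence upstream of Cry1 is shown because it held both E-box forms. It is the 250 bases before the RefSeq start (GRCm38.p6), chr10:85185055-85185304, minus strand, of which 10 bases are annotated as exon in GENCODE M21. Capitals mark, in order, the E-box-prime CACGTT (read on the other strand, as AACGTG) at position -79 and the E-box CACGTG at -60.
Cry1 upstream: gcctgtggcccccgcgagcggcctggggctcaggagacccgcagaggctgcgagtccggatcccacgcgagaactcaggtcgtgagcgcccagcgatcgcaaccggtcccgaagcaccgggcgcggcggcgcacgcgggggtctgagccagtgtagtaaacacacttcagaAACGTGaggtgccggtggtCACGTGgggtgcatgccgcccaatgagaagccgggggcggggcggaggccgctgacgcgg
Cry2 held an E-box-prime alone, at position -166. E-box-prime was found in 4.68% of windows.

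The nuclear receptors Nr1d1 and Nr1d2, which repress Arntl and bind heme, were higher in old control than in young livers without overlap, but neither passed the test. Nr1d1 (chromosome 11, 98767932 to 98775333, minus strand) had 116, 105 and 148 CPM in young, 201, 169 and 152 CPM in old control and 140, 115, 149 and 116 CPM in old knockout livers. Its log2 fold change with age was 0.50 (95% interval 0.12 to 0.88, edgeR adjusted p = 0.0561). The knockout livers overlapped the young ones in Nr1d1, at 129.9 ± 16.8 CPM (SD, n = 4) against 122.9 ± 22.3 (SD, n = 3) in young and 173.9 ± 25.1 (SD, n = 3) in old control livers. Of the exon bases of Nr1d1, 8.55% overlap Thra on the other strand, and the use of strand in counting is not given in the sources used here, so some of its reads could belong to Thra. The same holds for the 4.67% of the exon bases of Cry2 that overlap the counted gene D930015M05Rik on the other strand.

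Nr1d2 (chromosome 14, 18204054 to 18239127, minus strand) had 47.8, 24.1 and 47.1 CPM in young, 80.2, 58.7 and 53.6 CPM in old control and 61.2, 67.4, 72.4 and 67.4 CPM in old knockout livers. Young replicate 2 was the lowest. The log2 fold change of Nr1d2 was 0.69 (95% interval 0.17 to 1.22, edgeR adjusted p = 0.0562) with age and 0.76 (95% interval 0.26 to 1.25, adjusted p = 0.051) in old knockout against young livers. Both receptors passed the test with age under DESeq2 and with upper quartile factors or library totals in place of TMM. They also passed it without old control replicate 3, where 37.7% of all genes were called. Each was called with age in 5 of 13 alternatives.

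Counted together, 4 of 10 members (40%) changed between old and young controls, Per3 upward and Arntl, Clock and Cry1 downward. The background was 22.8% of the 13909 genes tested, 14.1% higher and 8.66% lower. Groups did not overlap for 6 members, 3 higher and 3 lower, against 37.7% of all genes, 19.7% higher and 18% lower. An unadjusted p under 0.05 was reached by 7 members, against 38.5% of genes. The median log2 fold change of the members was -0.13, against 0.04 over all genes, and it hides opposite directions. The count moved with single libraries, as did that of all genes: 1 member (Per3) was called without young replicate 2, where 2.8% of all genes were, and 2 (Per3 and Cry1) without old control replicate 2, where 7.35% were. It was 7 without old control replicate 3 (37.7% of all genes), and leaving out both libraries that stand apart gave 5 (Arntl, Per3, Cry1, Cry2 and Nr1d2; 25.6% of all genes). Scaling mattered as well. With library totals alone the median of all genes moved to 0.34 and the called genes from 1967 higher and 1205 lower to 3869 and 354. The members called were then Per3, Cry2, Nr1d1 and Nr1d2, all higher, while the log2 fold changes of Arntl (-0.65), Clock (-0.17) and Cry1 (-0.57) kept their sign. With upper quartile factors the median was 0.15, the split 2503 to 723, and 7 members were called.

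**Figure D2:**
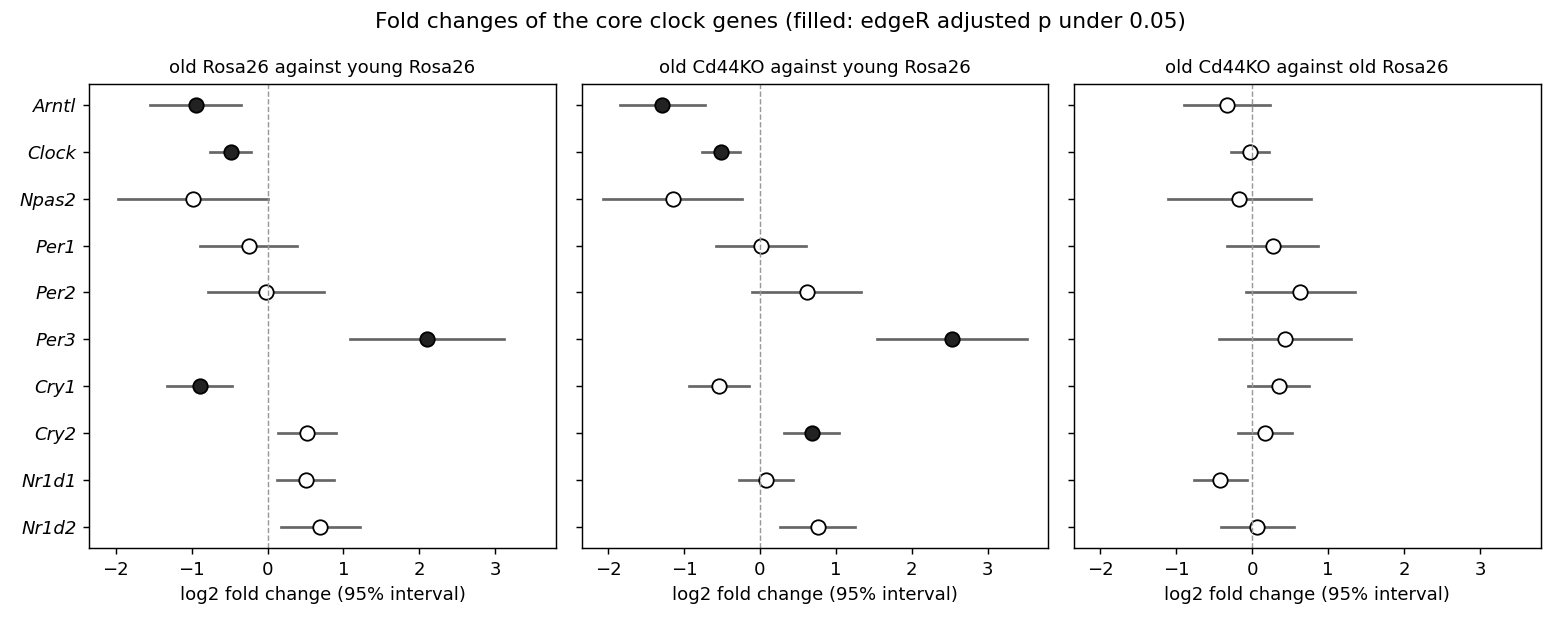
Log2 fold change of each core clock gene (horizontal axes, points with 95% intervals) in 3 comparisons of groups; filled points passed an edgeR adjusted p of 0.05. Per3 lay farthest from 0 against young livers, at 2.09 in old control and 2.53 in old knockout, and no member was called in old knockout against old control.

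Between old Cd44 knockout and old control livers, none of the 10 members passed the test. All edgeR adjusted p-values lay between 0.744 and 0.972, 1 member (Nr1d1) had an unadjusted p under 0.05, and DESeq2 and limma voom also called 0 members. The background was 0% of 13909 genes with edgeR and with limma voom and 0.0576% (8 genes) with DESeq2, and in the edgeR fit 6.59% of genes were at an unadjusted p under 0.05. Nr1d1 was the one member without overlap, lower in all 4 knockout livers, with a log2 fold change of -0.42 (95% interval -0.77 to -0.07, unadjusted p = 0.0224). Non-overlap was found for 6.1% of all genes, 2.84% higher and 3.26% lower. Clock was bounded most tightly, at -0.03 (95% interval -0.28 to 0.22), and Npas2 least, at -0.17 (95% interval -1.11 to 0.77). Per2 (0.63, 95% interval -0.08 to 1.35) and Cry1 (0.35, 95% interval -0.05 to 0.75) had intervals that reached just below 0. For 4 members the sign changed when a liver was left out: Clock and Npas2 without old control replicate 1, Npas2 also without knockout replicate 4, and Cry2 and Nr1d2 without old control replicate 3.

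The ratio of Nr1d1 to Nr1d2 within a library was 2.51, 2.88 and 2.83 in old control livers and 2.28, 1.71, 2.05 and 1.72 in knockout livers, with no overlap. In young livers it was 2.43, 4.35 and 3.14. This ratio was looked at after the values were seen, and it was not tested.

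Against the young controls, the old knockout livers had 4 of 10 members called, Per3 and Cry2 upward and Arntl and Clock downward. The background was 11.6% of genes, 6.64% higher and 4.97% lower. Groups did not overlap for 7 members, Per3, Cry2 and Nr1d2 higher and Arntl, Clock, Npas2 and Cry1 lower, against 40% of all genes, 21.1% higher and 18.8% lower. An unadjusted p under 0.05 was reached by 7 members, against 33.3% of genes. Both comparisons with young livers use the same 3 young controls, so their likeness is in part built in. Without young replicate 2 no member was called (0.395% of all genes were) and Per3 stood at 2.11 (edgeR adjusted p = 0.0514). Leaving out any of young replicates 1 and 3 or knockout replicates 2, 3 and 4 left 1 or 2 members, with 1.3% to 2.99% of all genes called. Without both libraries that stand apart the same 4 members were called (7.58% of all genes).

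Guide 4 and guide 2 livers differed in no member past the threshold. None of the 10 members was called between guide 4 and guide 2 (edgeR, 2 livers each), 0 had an unadjusted p under 0.05 (4.34% of all genes did), and DESeq2 and limma voom called 0, against a background of 0.0216% (3 of 13909 genes) with edgeR and with limma voom and 0.536% (73 genes) with DESeq2. Groups did not overlap for 4 members, Per2, Clock and Npas2 higher and Nr1d2 lower with guide 4, against 38.6% of all genes, 18.1% higher and 20.4% lower. Intervals were wide: -0.31 to 1.47 for Per2, -1.24 to 1.15 for Per3 and -0.35 to 0.44 for Clock, the narrowest being that of Clock. Compared on their own with young livers, guide 2 gave 1 called member (Per3), where 4.87% of all genes were called. Guide 4 gave 0, where 0.259% of all genes were called. Per3 differed by 2.55 (edgeR adjusted p = 0.0291) with guide 2 and by 2.51 (adjusted p = 0.0659) with guide 4.

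Over the 10 livers Per3 ran against Arntl (Pearson r = -0.98) and alongside Cry2 (0.95) and Nr1d2 (0.95), on the log2 CPM scale. After group means were subtracted the same pairs had r of -0.91, 0.85 and 0.88. Clock behaved otherwise: its r with Per3 was -0.78 over all livers and 0.11 within groups, and with Arntl 0.70 and -0.36. Per1 had no r beyond 0.22 in size with any other member over all livers. These are descriptions over 10 livers that share libraries and scaling, and group differences enter the first of each pair of values.

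The Per3 to Arntl ratio within a library, free of that scaling, was 0.345, 0.0654 and 0.557 in young livers, 4.35, 2.76 and 0.877 in old control livers and 3.03, 5.32, 2.66 and 5.31 in old knockout livers. Young replicate 2 had the lowest ratio and old control replicate 3 the lowest of any old liver. The map of liver profiles shows the same 2 livers at the edge of their groups in Per3, Nr1d2, Dbp and Tef, where old control replicate 3 was the old liver nearest to the young ones. In Cry1 that liver was the lowest of all 10 and so the farthest from the young ones.

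**Figure D3:**
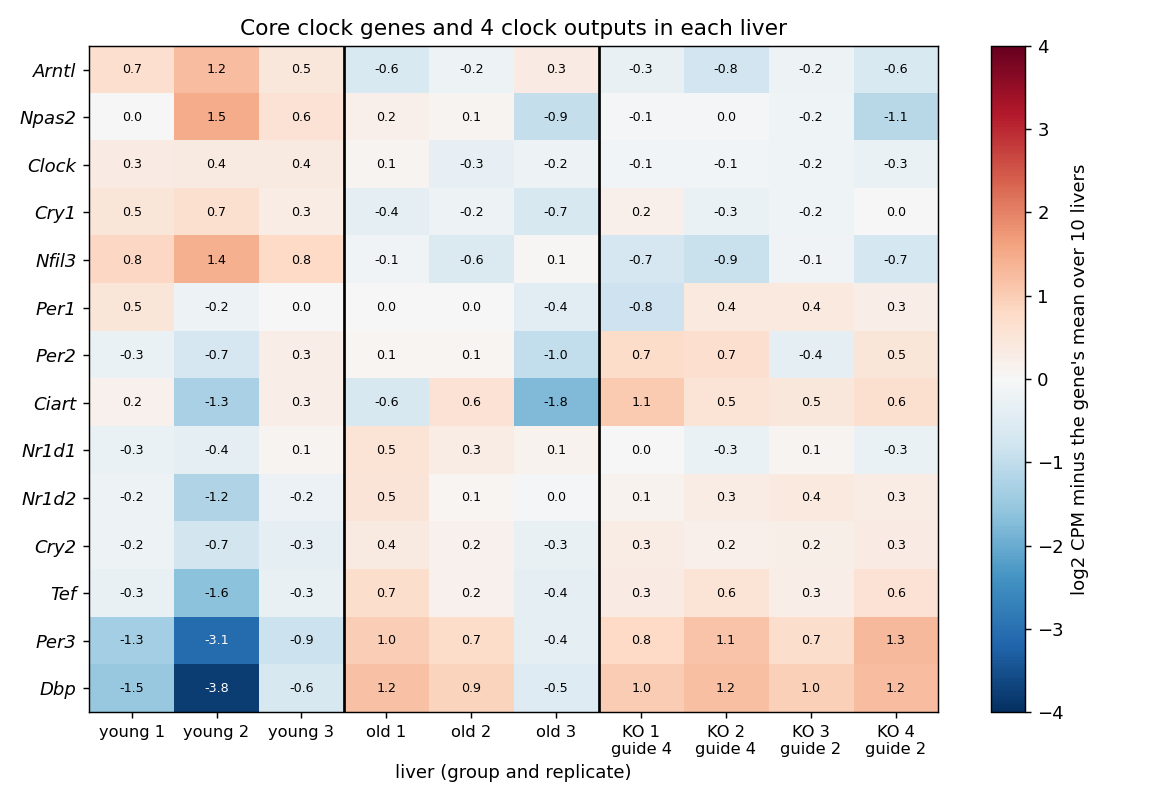
Log2 CPM minus the mean of each gene over the 10 livers (colour and printed value) for the core clock genes and 4 clock outputs (rows) in each liver (columns, by group and replicate). In young replicate 2 Per3 stood at -3.09 and Dbp at -3.81, and in old control replicate 3 they stood at -0.36 and -0.52, below 0 unlike in the other old livers.

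**Figure D4:**
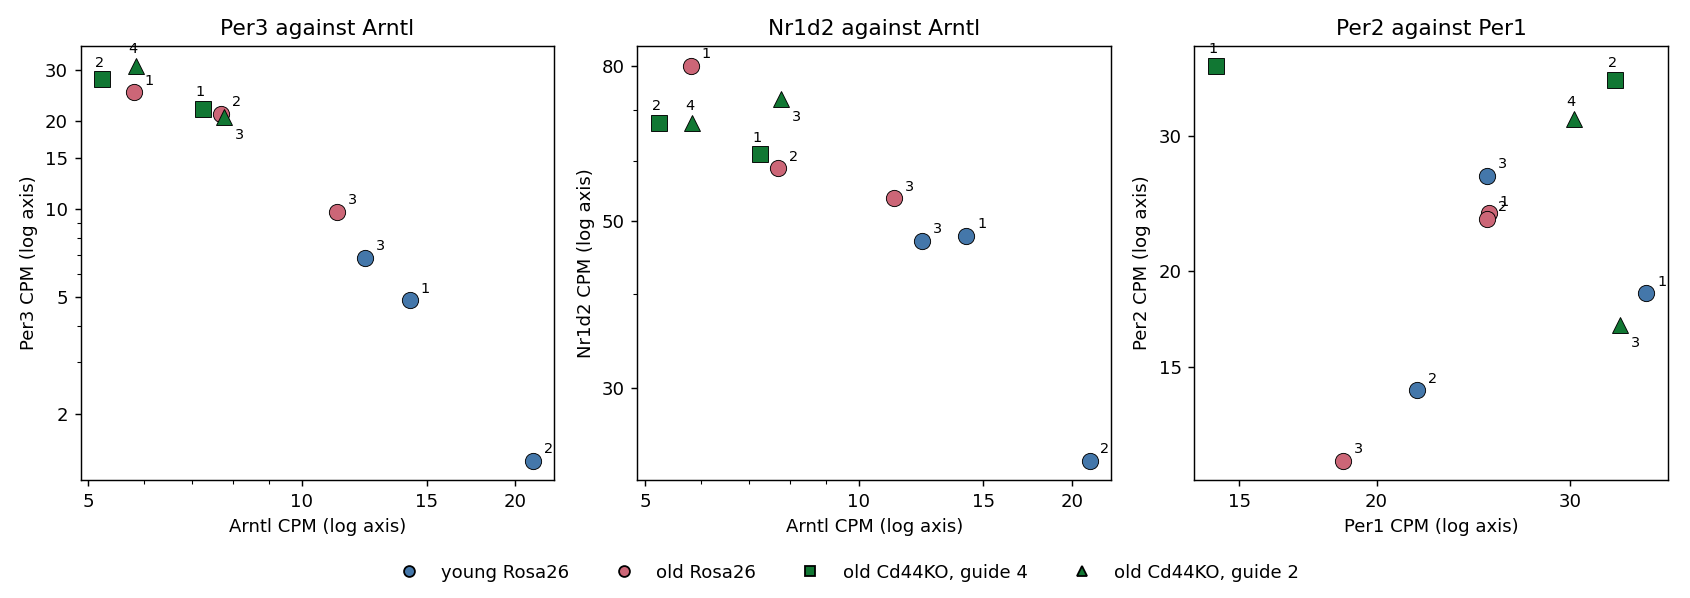
CPM on logarithmic axes of Per3 against Arntl, Nr1d2 against Arntl and Per2 against Per1, each point a liver labelled with its replicate number, coloured by group and shaped by guide. Per3 falls as Arntl rises across the 10 livers, from 31.0 CPM of Per3 beside 5.83 of Arntl in knockout replicate 4 to 1.38 beside 21.2 in young replicate 2.

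The direct outputs of the loop were read next. Dbp, a transcription factor driven by ARNTL and CLOCK that acts on D-boxes, had 13.4, 2.64 and 24.7 CPM in young, 86.3, 71.5 and 26.7 CPM in old control and 78.3, 87.9, 74.3 and 91.0 CPM in old knockout livers. Old control replicate 3 was only just above young replicate 3. Dbp rose with age by 2.18 (SE 0.59, edgeR adjusted p = 0.0263) and was higher in old knockout than in young livers by 2.61 (SE 0.58, adjusted p = 0.0248). The age call of Dbp was lost without young replicate 1 (edgeR adjusted p = 0.0745), young replicate 2 (0.0574), old control replicate 1 (0.0573) or old control replicate 2 (0.0762). The call in old knockout against young livers was lost without young replicate 1 (0.0715), young replicate 2 (0.066) or knockout replicate 2 (0.0566), 3 (0.0542) or 4 (0.0603), and with guide 2 (0.0522) or guide 4 (0.0902) livers alone. Nfil3, which opposes DBP at D-boxes, ran the other way with 50.1, 76.7 and 49.9 CPM in young, 25.7, 19.0 and 29.5 CPM in old control and 17.7, 15.2, 25.7 and 17.6 CPM in old knockout livers. Nfil3 fell with age by 1.25 on the log2 scale (SE 0.24, adjusted p = 0.00936).

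Over the 10 livers Dbp had r = 0.99 with Per3, both over all livers and within groups. Tef, a relative of DBP, had 91.4, 36.2 and 90.9 CPM in young, 184, 127 and 88.2 CPM in old control and 141, 166, 136 and 170.3 CPM in old knockout livers, and young and old controls overlapped. Hlf, the third member of that family, lay between 30.3 and 40.7 CPM in young and between 33.5 and 39.5 CPM in old control livers. In old knockout livers Hlf lay between 39.97 and 50.6 CPM, above all old control livers but not all young ones. Such upward non-overlap with old control livers was found for 2.84% of all genes, and edgeR called 0 genes there. Ciart, a repressor of the ARNTL and CLOCK pair with 3 E-boxes in its window, was at 1.25 to 3.86 CPM in young, 0.858 to 4.83 CPM in old control and 4.47 to 6.80 CPM in old knockout livers. Of the 6 output factors, 2 passed the test with age, Dbp and Nfil3, against 22.8% of all genes. Without any of young replicates 1 and 2 and old control replicates 1 and 2, 1 did (2.8% to 20.1% of all genes).

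Rora, an activating receptor that shares the ROR element with NR1D1, had 41.9 to 55.7 CPM in young, 36.7 to 40.9 CPM in old control and 35.5 to 47.2 CPM in old knockout livers. Bhlhe40 and Bhlhe41, repressors that compete for E-boxes, overlapped between young and old controls. Bhlhe40 had 62.6 to 102 CPM in young, 69.0 to 105 CPM in old control and 110 to 153 CPM in old knockout livers. For Bhlhe41 the ranges were 1.85 to 7.41, 1.67 to 4.91 and 3.25 to 6.54 CPM. In Bhlhe40 the knockout livers lay above all old control and young livers. Such upward non-overlap was found for 2.84% of all genes against old control and 21.1% against young livers. Against old control livers edgeR called 0 genes.

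Of 34 tested clock modulators, the kinases, ubiquitin ligases, nuclear receptors and co-repressors that tune the loop, 2 rose and 6 fell with age (23.5%, near the background of 22.8%). Those that fell included Gsk3b, a kinase of clock proteins (47.3, 50.1 and 46.8 CPM in young against 31.0, 34.1 and 34.7 CPM in old control livers), a log2 difference of -0.53 (SE 0.10; adjusted p = 0.00981, edgeR). Cipc, an inhibitor of CLOCK, went from 58.7, 69.7 and 61.7 to 48.6, 28.3 and 39.4 CPM, with a log2 fold change of -0.71 (SE 0.17, adjusted p = 0.0188). Prkaa2, a subunit of the energy sensor AMPK that marks CRY proteins for breakdown, had a log2 fold change of -0.68 (SE 0.15, adjusted p = 0.0133). Without young replicate 2 the edgeR adjusted p was 0.0509 for Gsk3b, 0.0778 for Cipc and 0.0586 for Prkaa2, and without old control replicate 2 it was 0.0555 for Cipc. Ube3a (-0.51), Wdr5 (-0.41) and Sfpq (-0.67) completed the 6. With library totals alone Gsk3b was at -0.22 (adjusted p = 0.106), Cipc at -0.40 (0.106), Prkaa2 at -0.38 (0.0392), Ube3a at -0.21 (0.225), Wdr5 at -0.11 (0.439) and Sfpq at -0.37 (0.0621). Without old control replicate 2 the calls of Ube3a (0.0983), Wdr5 (0.0907) and Sfpq (0.0578) were lost, and those of Ube3a and Wdr5 also without young replicate 1 (0.0593 and 0.0679) or 3 (0.0587 and 0.0638). The count of 8 was 4 without young replicate 1 (11.9% of all genes) and 0 without young replicate 2 (2.8%). It was 5 without young replicate 3 (11%) and 2 without old control replicate 2 (7.35%). In old knockout against young livers 1 rose and 3 fell, the latter being Ube3a, Wdr5 and Sfpq, against 11.6% of all genes called. That count was 1 without young replicate 1 (2.99% of all genes). It was 0 without young replicate 2 or 3 or knockout replicate 2, 3 or 4 (0.395% to 2.85% of all genes). With guide 4 livers alone it was 0 too (0.259%).

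Of 20 clock-controlled metabolic genes, 3 rose and 5 fell with age, against 14.1% and 8.66% of all genes. Insig2, which holds back SREBP processing, had 297, 300.2 and 270.8 CPM in young and 126, 127 and 188 CPM in old control livers, a log2 difference of -0.98 (SE 0.22; adjusted p = 0.0141, edgeR), a call lost without young replicate 2 (adjusted p = 0.06) or old control replicate 2 (0.0578). Elovl3, an enzyme that lengthens fatty acids, had 261, 414 and 335 CPM in young and 156, 79.2 and 159.9 CPM in old control livers, and Lpin1 (-0.99), Cdkn1a (-1.97) and Tfrc (-0.81) were the other 3 that fell. With library totals alone Tfrc stood at -0.49 (adjusted p = 0.0541), its call was lost without young replicate 2 (0.0509), and that of Lpin1 without young replicate 3 (0.0539). The count of 8 became 4 without young replicate 2 (2.8% of all genes), 5 without old control replicate 2 (7.35%) and 10 without old control replicate 3 (37.7%). Between the guides 1 gene of this list was called, the cytochrome Cyp2a5, lower with guide 4 by 2.21 on the log2 scale (SE 0.26; adjusted p = 0.0332, edgeR), against 3 of 13909 genes in all. No gene of the list was called between the guides with library totals alone (0.0144% of all genes) or without any single knockout liver (0%).

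Genes that report glucocorticoid, temperature and feeding cues, through which the liver clock is set, were counted next: 6 of 23 rose and 10 fell with age, against 22.8% of all genes called. Hspa1b, a heat-inducible chaperone, had 54.1, 50.04 and 107 CPM in young and 9.14, 6.88 and 12.3 CPM in old control livers, and differed by -2.90 in log2 terms (SE 0.32; adjusted p = 0.00648, edgeR). Cirbp, which is induced by mild cooling, had 15.4, 12.46 and 10.8 CPM in young and 50.7, 34.9 and 21.8 CPM in old control livers, and is named here after its values were seen. Fkbp5, induced by glucocorticoids, had 95.4, 93.7 and 143 CPM in young and 24.1, 43.6 and 48.8 CPM in old control livers (-1.51, SE 0.25, adjusted p = 0.00798). Angptl4, which rises in fasting, had 164, 227 and 152 CPM against 59.2, 47.3 and 57.8 CPM, and Srebf1, which rises with feeding and insulin, 121, 82.6 and 96.4 CPM against 248, 275 and 209.6 CPM. Hspa1a (-2.56) and Hspa8 (-1.24) also fell. The count of 16 was 7 without young replicate 2 (2.8% of all genes), 10 without old control replicate 2 (7.35%) and 12 without both libraries that stand apart (25.6%). In old knockout against young livers 2 rose and 8 fell, against 11.6% of all genes called. Their number was 4 to 6 without any of young replicates 1 to 3 and knockout replicates 2 to 4 (0.395% to 2.99% of all genes). It was 3 with guide 4 livers alone (0.259% of all genes). Between old knockout and old control livers 0 of 23 were called by edgeR (5 at an unadjusted p under 0.05, against 6.59% of all genes). DESeq2 called 1 of them, Egr1, an immediate early factor named here after its values were seen, with a log2 fold change of -2.03 (DESeq2 adjusted p = 0.00598). Egr1 had 63.7, 50.1 and 68.6 CPM in old control and 6.62, 17.8, 18.6 and 16.9 CPM in old knockout livers, and knockout replicate 1, the lowest in Per1, was the lowest here too. The part of these cues in the differences of the clock genes was not tested. In old knockout against old control livers the other 3 lists had 0 called genes as well, with 4 modulators, 1 output factor and 4 metabolic genes at an unadjusted p under 0.05, of 34, 6 and 20 genes and against the same 6.59%.

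Cell markers moved with age beside the clock genes. In bulk tissue, fewer cells of a type and less RNA per cell cannot be told apart. The summed hepatocyte markers (6 genes) ranged from 95427 to 123760 CPM in young, 79963 to 108470 in old control and 85198 to 89060 in old knockout livers, and 1 of 6, Hnf4a, fell with age. Kupffer cell and macrophage markers (4 of 4 rose with age) summed to 97.3 to 119 CPM in young, 184 to 739 in old control and 144 to 277 in old knockout livers. Endothelial markers (4 of 5 rose) summed to 91.9 to 136 CPM in young, 188 to 212 in old control and 108 to 165 in old knockout livers, and stellate cell markers (3 of 4 rose) to 125 to 184, 249.2 to 365 and 200.2 to 242 CPM. Neutrophil and marrow markers (3 of 3 tested rose) summed to 1.33 to 3.55, 6.78 to 170.2 and 3.19 to 11.7 CPM. The 170.2 CPM came from old control replicate 2 alone, with 6.78 in replicate 1 and 7.10 in replicate 3. That liver also held the 739 CPM of Kupffer cell and macrophage markers, against 184 in replicate 1 and 290 in replicate 3. T cell (2 of 3 rose) and B cell markers (2 of 3 rose) summed to at most 13.1 CPM in any liver, and cholangiocyte markers (0 of 3 called) to at most 11.1 CPM. The part of cell makeup in the clock gene differences was not tested.

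Across the transcriptome, the genes whose log2 CPM followed Arntl most closely over the 10 livers, of 12685 with a mean CPM of at least 1, were Cops6 (r = 0.98), Pnkd (0.98), Ticam1 (0.98), Eif3a (0.97) and Samd4b (0.97). Those that ran most against it were Arl2 (-0.97), Wipf3 (-0.97), Rnf152 (-0.97), Gatsl3 (-0.96) and Dbp (-0.96). For Arntl 405 genes passed 0.9 in size, and for Per2 only 8. Nearest to Per2 were Ccne2 (0.92), Hes6 (0.92), Bhlhe41 (0.91), Plekhh3 (0.89) and Dapk2 (0.89), and most opposite were Bcas3 (-0.92), Gpld1 (-0.91), Pi4kb (-0.91), Plbd2 (-0.91) and Chac1 (-0.90). Within groups the r with Per2 was 0.96 for Ccne2, 0.92 for Hes6 and 0.91 for Bhlhe41. These values describe 10 livers that share group differences and scaling.

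Promoter windows from 250 bases before to 50 after each RefSeq start were at hand for 9 of 10 members, with 13 windows in all, and Per2 had none in the table used. Besides the matches shown above, Nr1d1 held an E-box-prime at position -28, Arntl a D-box at position 14 after its second start, and the second start of Per1 a cAMP response half-site (TGACGT, in 7.51% of windows) at -132. Clock, Npas2 and Nr1d2 had no match to any of these letters in their windows, which says nothing of sites elsewhere. The stretch before Nr1d1 is from RefSeq (GRCm38.p6, chr11:98775378-98775627, minus strand) and lies outside annotated exons. It is shown because Nr1d1 was the one member without overlap between knockout and old control livers. Non-overlap was found for 6.1% of all genes in that comparison, and Nr1d1 was not called. Capitals mark the E-box-prime, read on the other strand.
Nr1d1 upstream: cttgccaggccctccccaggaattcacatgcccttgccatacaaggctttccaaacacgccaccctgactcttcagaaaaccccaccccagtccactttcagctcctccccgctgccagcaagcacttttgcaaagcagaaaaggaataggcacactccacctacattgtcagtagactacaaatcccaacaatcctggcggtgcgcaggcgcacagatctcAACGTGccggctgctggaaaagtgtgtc

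**Figure D5:**
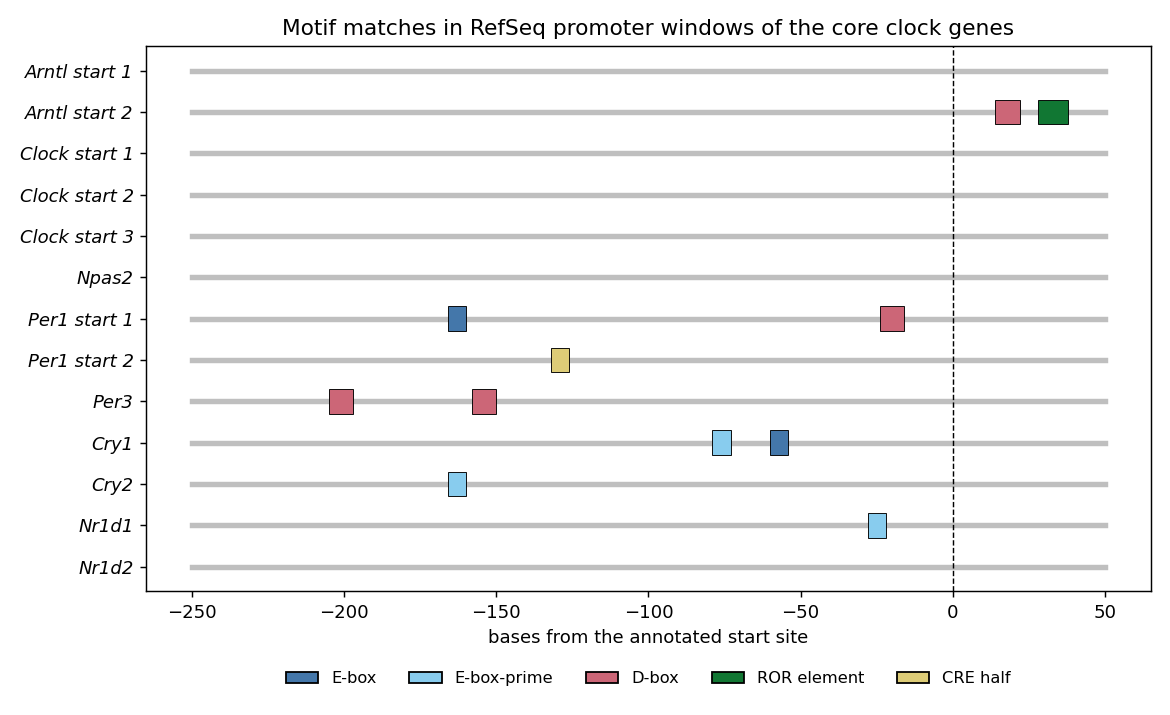
Motif matches (coloured marks) along the RefSeq promoter windows of the core clock genes, one line per annotated start; the horizontal axis is distance in bases from the start. Per3 has its pair of D-boxes at -205 and -158, Cry1 its E-box forms at -79 and -60, and Clock, Npas2 and Nr1d2 have no mark.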

How the data were processed

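RNA was measured in 10 whole livers, as polyadenylated RNA sequenced in paired reads, per the labels' protocols. The authors deposited raw read counts per gene symbol, 1 column per liver, with no normalization. Per the submitters' processing notes, FastQC 0.11.8, Trim Galore 0.4.4, STAR 2.5.3a, HOMER and mm10 were named, with no role or order; counting settings and strand use are not given in the sources used here. No pair of libraries within a group looked like 1 library deposited again (lowest chi-square per degree of freedom 21.7). Reads carry no molecular identifiers, so the floor of 3 counts covers counting error only.

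Counts were tested with edgeR 4.0.16 (R 4.3.3): quasi-likelihood test, 1 coefficient per group over all libraries (per guide for the guide comparison), TMM factors, filterByExpr (minimum count 10, minimum total 15), and Benjamini-Hochberg adjustment over 13909 genes. A gene was called at an adjusted p under 0.05. Standard errors are the log2 fold change over the square root of F, and intervals are 95%. Log2 CPM for correlations and profiles used a prior count of 2. Alternatives were DESeq2 1.42.0, limma 3.58.1 voom, other scalings, no filter, fewer groups, single guides and each liver left out; leaving out young replicate 2 with old control replicate 3 was added after seeing the data. Scripts were tested on simulated data. Gene positions and exon lengths are from GENCODE M21 (GRCm38), matched by symbol, and motifs were searched on both strands of RefSeq promoter windows (GRCm38.p6). No 75-base stretch was shared between transcripts of any 2 members.

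The members and the gene lists were chosen with earlier results of these data known. Named genes were the members, at most 6 called genes per list by smallest adjusted p, loop partners (Rora, Dbp, Ciart, Bhlhe40, Bhlhe41, Tef, Hlf, Nfil3), the 5 genes most like and most unlike Arntl and Per2, and Cd44; some genes under this rule are not reported here. Marker genes for 8 cell types were listed by name; Trac was not used here and Elane was below the filter.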

Additional observations from a re-analysis of the deposited data

Results flagged for a closer look

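Among the 4 old knockout livers, the Per1 level of replicate 1 stood apart at 14.3 CPM, against 30.2 to 33.3 CPM in the other 3, a gap of 0.838 of the whole range. The Npas2 level of replicate 4 was likewise apart at 0.875 CPM, against 1.79 to 1.96 CPM, a gap of 0.841 of the range, and rested on 15 counts. Both shares exceed the Dixon limit for 4 samples, and chance flags about 1 in 20 groups. With 38 groups of 4 tested, 2 were flagged and 1.9 would be by chance.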

How the results depend on the processing

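With age, 4 members were called (22.8% of all genes were). The count was 7 with DESeq2 (28.2% of all genes), 7 with upper quartile factors (23.2%) and 2 with the compared groups alone (8.9%). With each liver left out it was 1 to 7 (2.8% to 37.7% of all genes). For old knockout against young livers 4 were called (11.6% of all genes were). There the count was 7 with DESeq2 (20.2% of all genes) and 7 with the compared groups alone (31%). It was 1 with guide 2 livers alone (4.87%) and 0 with guide 4 livers alone (0.259%). With each liver left out it was 0 to 4 (0.395% to 11.9% of all genes). For old knockout against old control and for the guides it was 0 under every alternative run. The share of all genes there reached at most 0.0576% and 0.536%, both with DESeq2. The causes of these changes in count were not tested, and the subsets also hold fewer livers. No paired analysis was possible because no label links a liver of one group to a liver of another.

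No called value of a member changed sign. Log2 fold changes that did, with none called before or after, were as follows. With age, library totals gave 0.068 for Per1 and 0.30 for Per2, and Per2 was 0.094 with upper quartile factors, 0.055 without both libraries that stand apart, and -0.22 to 0.25 with each liver left out. In old knockout against old control, ranges with each liver left out were -0.12 to 0.10 for Clock, -0.46 to 0.043 for Npas2, -0.0041 to 0.31 for Cry2 and -0.047 to 0.26 for Nr1d2. Guide 4 livers alone gave 0.014 for Clock and 0.069 for Npas2, and leaving out both libraries gave -0.004 for Cry2 and -0.047 for Nr1d2. In old knockout against young, Per1 was -0.027 with limma voom, -0.13 without both libraries, -0.21 with guide 4 alone and -0.13 to 0.24 with each liver left out, and Nr1d1 was -0.026 without both libraries and -0.026 to 0.23 with each liver left out. Between guides the ranges with each liver left out were -0.38 to 0.10 for Arntl, -1.15 to 0.054 for Per1, -0.31 to 0.27 for Per3, -0.16 to 0.32 for Cry1, -0.074 to 0.0035 for Cry2 and -0.22 to 0.14 for Nr1d1.

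Depth limits Npas2 most, at 15 to 89 counts per liver. Groups of 3 or 4 livers, with 2 per guide, set the width of the intervals, and a comparison that missed the threshold does not show that groups were alike.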
